A study of Rattus norvegicus with 10 samples.

Results

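The interferon-stimulated genes described here are 45 effectors and sensors that cells switch on after exposure to interferon, taken by gene symbol from a deposited table of 22250 rat genes. All 45 were found, each on 1 row, and all 45 were among the 14320 genes with enough reads to test; interferon regulatory factors and chemokines were kept out of the list. The libraries were made from lung tissue of rats, 5 labelled MOD and 5 labelled XBS. According to the series text, a neutrophil-rich form of asthma was set up with ovalbumin, an egg protein used as allergen, plus lipopolysaccharide, a bacterial cell wall component, and a herbal mixture called SP, the Shuangpi formula of the series title, was then given. The meaning of MOD and of XBS is not spelled out, nor which of them, if any, received SP, and the labels give no strain, age, dose or day, so the comparison is XBS against MOD. The labels list the human bronchial line 16HBE beside the tissue, whereas the table holds rat Ensembl identifiers and every library had high levels of alveolar type 2 cell genes (10 markers, 17311 to 34811 CPM in sum), as lung tissue does. Levels are in CPM, the read count relative to the library size after TMM scaling. Library totals were 11998979 to 15518929 reads. Whether each library is a rat of its own is not stated, so the p-values speak only of the scatter among these libraries, which could be technical.

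Interferons are secreted proteins that warn neighbouring cells of infection. Type I and type III interferons bind their receptors, the kinases JAK1 and TYK2 phosphorylate STAT proteins, and STAT2 and IRF9 take part in a complex that binds an element in the promoters of the genes studied here. In the lung, alveolar macrophages, plasmacytoid dendritic cells and airway epithelium are known sources or targets of these signals. In whole tissue, more cells of a type and more RNA per cell cannot be told apart.

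Most interferon-stimulated genes had higher means in XBS, but no member passed the threshold. Of the 45 members 39 had a positive fold change and 6 a negative one, with a median log2 fold change of 0.29 against 0.01 over all 14320 genes tested, of which 51.9% were positive. By edgeR with Benjamini-Hochberg adjustment over all genes, 0 members rose and 0 fell; over all genes 11 were called, or 0.0768%, with 0.0279% higher and 0.0489% lower in XBS. At an unadjusted p under 0.05 edgeR gave 13 members higher (7.4% of all genes) and 0 lower (5.78% of all genes). DESeq2 called 2 members higher, Zbp1 and Oasl (1.5% of the 13469 genes to which it gave an adjusted p). With sample weights, limma voom called 0 members, and 67 of all 14320 genes in either direction. The range of fold changes ran from 2.19-fold higher for Zbp1 to 1.21-fold lower for Ddx58.

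For most members 1 XBS library, XBS 4, lay within the MOD range. The median over members of the log2 level, centred on each gene's mean, stood at 0.28, 0.27, 0.22 and 0.36 in XBS 1, XBS 2, XBS 3 and XBS 5 and at -0.26 in XBS 4. In MOD it stood at -0.37, -0.01, -0.06, 0.18 and -0.48 in MOD 1 to 5. XBS 4 therefore lay below MOD 2, MOD 3 and MOD 4, while the other 4 XBS libraries lay above all 5 MOD libraries. XBS 4 was the lowest XBS library for 35 of the 45 members, against 19.1% of all genes tested, and it lay inside the MOD range for 41 members, against 68.9% of all genes. MOD 4 was the highest MOD library for 25 members (17.4% of all genes) and MOD 5 the lowest for 27. XBS 5 was the highest of all 10 libraries for 15 members and XBS 1 for 12. For these counts of MOD 5, XBS 5 and XBS 1 the share over all genes was not computed.

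No member had all 5 XBS libraries above all 5 MOD libraries, a pattern that 1.61% of all genes tested showed. With XBS 4 set apart, a choice made with earlier results of these data known, 15 members had XBS 1, 2, 3 and 5 above every MOD library, against 2.97% of all genes. Those 15 were Stat2, Zbp1, Dhx58, Trex1, Eif2ak2, Znfx1, Adar, Mx1, Oasl, Oasl2, Uba7, Parp9, Ifi44, Ifi44l and Sp110. When XBS 4 was left out of the fit the members' median was 0.42, and 16 rather than 9 members were at least 1.5-fold higher (4.61% and 3.57% of all genes). That fit still called 0 members by edgeR, where 0.0347% of genes were called higher; 26 members were higher at an unadjusted p under 0.05 (8.79% of all genes) and 0 lower. The smallest adjusted p without XBS 4 was that of Dhx58, 0.0886.

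**Figure D1:**
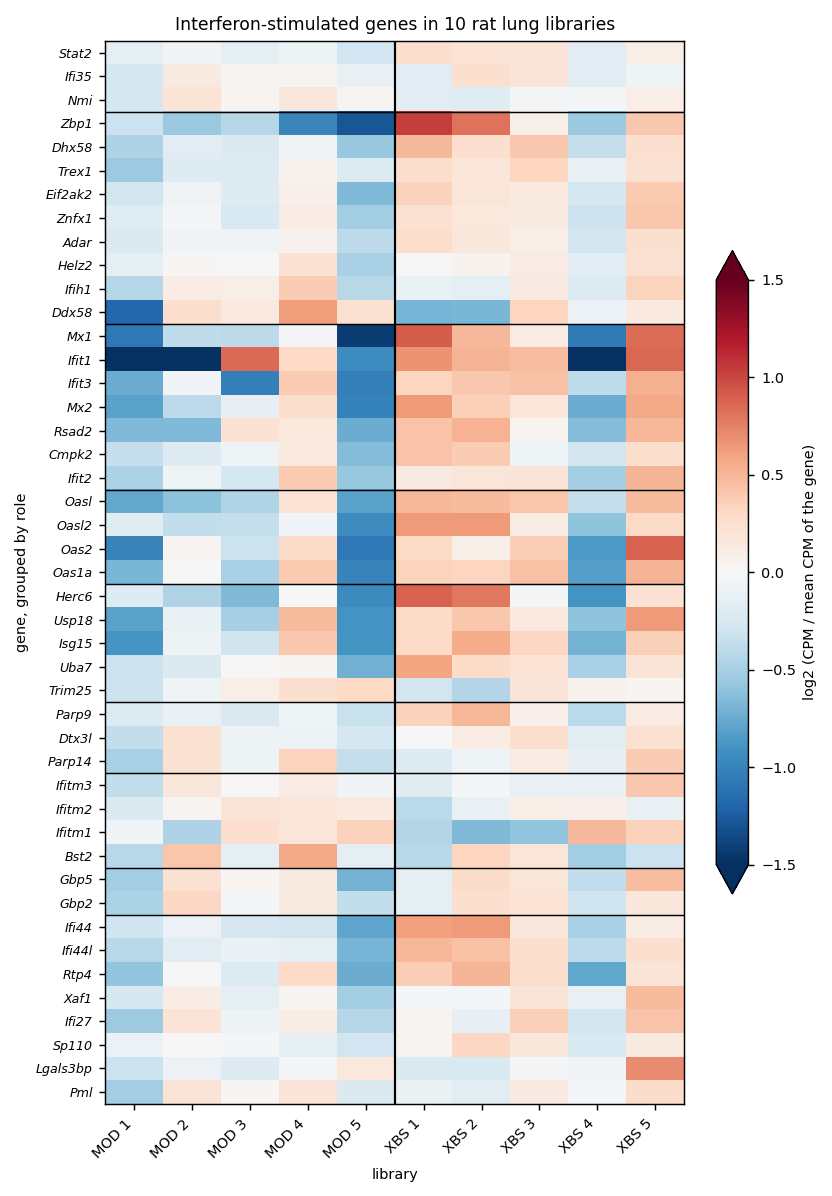
Level of each of the 45 members in each library, as log2 of CPM over the gene's mean CPM; rows are genes grouped by role, columns are the 5 MOD and 5 XBS libraries, and colours beyond 1.5 in either direction are saturated. XBS 4 is the lowest XBS library for 35 members, and Ifit1 stands apart in MOD 1, MOD 2 and XBS 4.

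A response element was common in the members' promoters. RefSeq promoter windows, 250 bases before to 50 after each gene's start on build GRCr8, were matched for 33 of the 45 members. The core letters of the interferon-stimulated response element, GAAA, any 2 bases and GAAA again (TTTC, any 2 bases and TTTC on the other strand), occurred in 21 of these 33 (63.6%), against 4.12% of all 27457 genes with a window; overlapping matches were counted. The gamma activated site letters TTCNNNGAA, which read the same on both strands, occurred in 5 of 33 (15.2%), against 9.39% of all genes. Only bases before the start are printed, with the element core in capitals. The first 6 belong to members at least 1.4-fold higher in XBS: Ifit3 at chr1:241527257-241527316 (plus strand), Oas1a at chr12:41330400-41330465 (plus strand), Oasl2 at chr12:47383302-47383361 (minus strand), Ifi44 at chr2:243303841-243303891 (minus strand), Ifi44l at chr2:243328607-243328698 (plus strand) and Rsad2 at chr6:48788233-48788292 (minus strand). The last 4 belong to members that differed by less than 1.2-fold: Ifih1 at chr3:67683993-67684052 (minus strand), Gbp2 at chr2:234005671-234005726 (plus strand), Bst2 at chr16:18255058-18255123 (minus strand) and Ifitm3 at chr1:205541768-205541827 (minus strand). Each is written 5′ to 3′ on the gene's own strand.
Ifit3: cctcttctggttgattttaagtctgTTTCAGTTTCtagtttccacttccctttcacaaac
Oas1a: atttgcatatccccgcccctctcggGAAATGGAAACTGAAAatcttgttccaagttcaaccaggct
Oasl2: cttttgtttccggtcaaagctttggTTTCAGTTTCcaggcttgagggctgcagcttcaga
Ifi44: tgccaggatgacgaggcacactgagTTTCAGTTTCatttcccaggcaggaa
Ifi44l: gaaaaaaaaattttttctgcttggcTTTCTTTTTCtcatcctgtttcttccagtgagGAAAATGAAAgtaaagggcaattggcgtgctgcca
Rsad2: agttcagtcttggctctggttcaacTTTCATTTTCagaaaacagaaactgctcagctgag
Ifih1: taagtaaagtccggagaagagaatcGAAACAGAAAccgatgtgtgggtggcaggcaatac
Gbp2: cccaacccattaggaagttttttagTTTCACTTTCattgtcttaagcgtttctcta
Bst2: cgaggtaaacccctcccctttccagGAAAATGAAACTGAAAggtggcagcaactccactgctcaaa
Ifitm3: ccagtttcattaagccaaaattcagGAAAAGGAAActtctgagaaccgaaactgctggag
Oas1a and Bst2 each held a pair of overlapping cores, and Ifi44l held 2 separate ones. The letters did not sort the members by their fold change: the 21 members with the core had a median log2 fold change of 0.20 (-0.22 to 0.68), and the 12 without it 0.35 (-0.14 to 0.98). Mx1, Oasl, Stat2, Herc6 and Trex1 were among the 12 whose windows lacked these letters. A match of letters describes a window and is not a measured binding site.

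**Figure D2:**
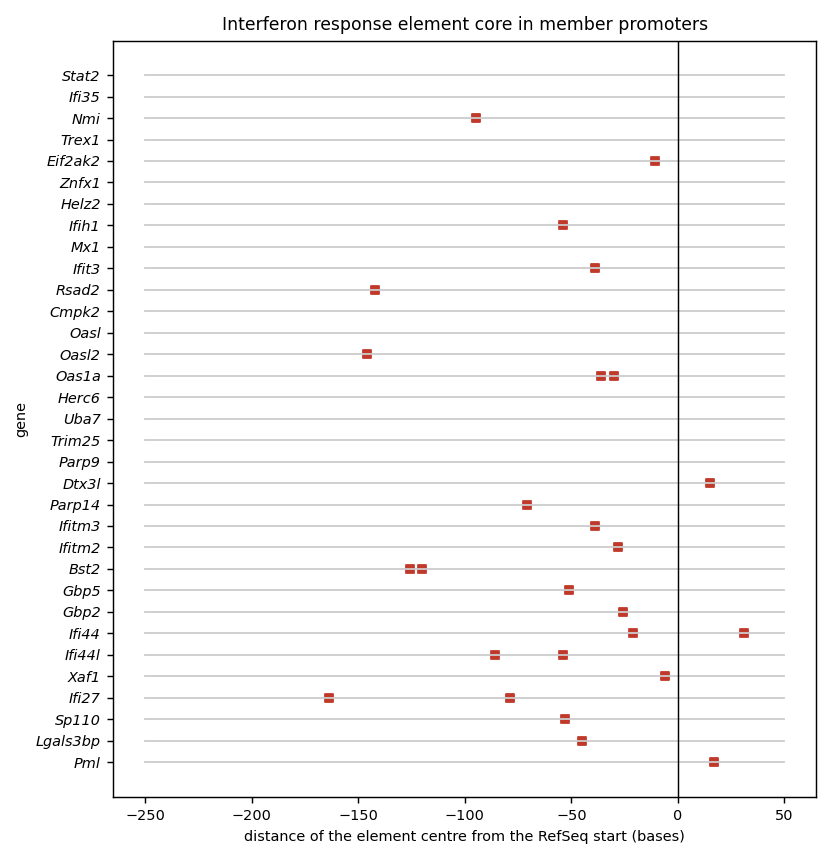
Position of the response element core (GAAA, any 2 bases, GAAA), in either direction, along the promoter windows of the 33 members with a RefSeq window; the x axis is the distance in bases from the RefSeq start and each square is the centre of 1 match. Of the 33 windows 21 hold at least 1 match, 19 of them before the start.

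Of the 3 signalling members, 0 rose, 0 fell and 3 did not pass. Stat2, the transcription factor that carries the type I signal to the nucleus, stood at 135, 146, 136, 142 and 123 CPM in MOD 1 to 5 and 177, 172, 171, 135 and 160.0 CPM in XBS 1 to 5. XBS 4 was at the level of MOD 1, and the other 4 XBS libraries were above every MOD library. The means were 137 ± 8.70 CPM over the MOD libraries against 163 ± 17.0 CPM over the XBS libraries (SD, n = 5 each), or 1.19-fold higher in XBS (log2 fold change 0.26 ± 0.08, SE; edgeR adjusted p = 0.246); without XBS 4 it was 1.25-fold (adjusted p = 0.109). Nmi and Ifi35, which bind each other and modulate cytokine signalling, differed by 1.07-fold (lower in XBS) and 1.03-fold (higher), less than the SD within either group.

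Sensors of foreign nucleic acid, 9 members of which 0 rose, 0 fell and 9 did not pass, held the largest fold change of the list. Zbp1, a sensor of left-handed nucleic acid that can start necroptosis, stood at 6.02, 5.12, 5.63, 3.79 and 3.12 CPM in MOD 1 to 5 and 15.5, 13.3, 8.01, 5.12 and 9.97 CPM in XBS 1 to 5. Counts were low, from 44 to 188 reads per library. XBS 4 lay within the MOD range and the other XBS libraries above it. The difference was 2.19-fold, with a log2 fold change of 1.13 ± 0.30 (SE) and an edgeR adjusted p of 0.170; by DESeq2 the adjusted p was 0.0204. It ran from 0.0965 to 0.408 by edgeR when single libraries were left out.

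Among the RIG-I-like receptors, which bind viral RNA in the cytosol, the 3 genes behaved unequally. Dhx58 (LGP2, a regulator of the other 2) stood at 22.9, 28.3, 27.3, 30.2 and 21.3 CPM in MOD 1 to 5 and 44.2, 37.7, 41.95, 24.6 and 37.7 CPM in XBS 1 to 5, 1.43-fold higher in XBS (adjusted p = 0.217 by edgeR). Without XBS 4 it was 1.55-fold higher (adjusted p = 0.0886). Ifih1 (MDA5) had near-equal means, with 46.3 ± 11.2 CPM over the MOD libraries against 47.5 ± 7.83 CPM over the XBS libraries (SD, n = 5 each). Ddx58 (RIG-I) was 1.21-fold lower in XBS, with groups that overlapped (adjusted p = 0.717 by edgeR). It stood at 13.1, 35.5, 32.9, 45.9 and 34.7 CPM in MOD 1 to 5 and 18.2, 18.4, 37.0, 27.8 and 32.8 CPM in XBS 1 to 5. MOD 1, XBS 1 and XBS 2 held 13.1 to 18.4 CPM and the remaining 7 libraries 27.8 to 45.9 CPM, an order that neither Dhx58 nor Ifih1 followed. It was not particular to Ddx58, since the members Trim25 and Nmi were lowest in the same libraries. In MOD 1, XBS 1 and XBS 2 Trim25 held 56.7, 58.4 and 52.3 CPM, and elsewhere 67.9 to 87.5 CPM. Nmi held 33.4, 35.5 and 35.0 CPM there, and elsewhere 38.8 to 45.8 CPM. The ratio of Ddx58 to Ifih1 was 0.376 in MOD 1, 0.418 in XBS 1 and 0.435 in XBS 2, and 0.553 to 0.984 in the other libraries.

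Of the remaining genes in this group, Trex1, an exonuclease that clears cytosolic DNA, stood at 12.8, 16.3, 16.2, 19.3 and 16.1 CPM in MOD 1 to 5 and 22.4, 21.1, 23.3, 17.3 and 21.9 CPM in XBS 1 to 5. It was 1.31-fold higher in XBS (log2 fold change 0.39 ± 0.12, SE; edgeR adjusted p = 0.232), again with XBS 4 inside the MOD range. Znfx1, a helicase that binds viral RNA, was the sensor with the highest CPM summed over the libraries, at 92.9, 103, 89.8, 114 and 74.2 CPM in MOD 1 to 5 and 124, 117, 116, 85.1 and 139 CPM in XBS 1 to 5. Its difference was 1.22-fold (edgeR adjusted p = 0.395). Eif2ak2, the kinase PKR that halts translation on double-stranded RNA, was 1.30-fold higher, Adar, which edits double-stranded RNA, 1.17-fold and the helicase gene Helz2 1.08-fold. None of them passed, and XBS 4 was the lowest XBS library for 8 of the 9 genes of the group, Ddx58 being the exception.

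The effectors that block viral replication had positive fold changes in all 7 members (0 rose, 0 fell, 7 did not pass; median log2 fold change 0.61, and 0.78 without XBS 4). Mx1, a dynamin-like GTPase that traps viral particles in the nucleus of rodent cells, stood at 51.7, 83.1, 82.5, 107 and 40.3 CPM in MOD 1 to 5 and 204, 152, 118, 52.2 and 194 CPM in XBS 1 to 5. XBS 4 lay at the level of MOD 1, and MOD 4 held the highest MOD value. The means were 72.9 ± 26.8 CPM over the MOD libraries against 144 ± 61.8 CPM over the XBS libraries (SD, n = 5 each), a 1.97-fold difference (adjusted p = 0.306 by edgeR), and 2.29-fold without XBS 4 (adjusted p = 0.128).

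Its neighbour Mx2, the cytoplasmic rodent paralogue, stood at 66.0, 87.3, 106, 138 and 57.0 CPM in MOD 1 to 5 and 178, 148, 129.8, 68.3 and 170.0 CPM in XBS 1 to 5. Mx2 was 1.53-fold higher (edgeR adjusted p = 0.392), with MOD 4 above XBS 3 and XBS 4. Mx1 and Mx2 lie 120466 bases apart on chromosome 11 in the deposited coordinates, for which no source used here names the build. Rsad2 (viperin, which makes a chain-terminating nucleotide) was 1.41-fold higher and Cmpk2, the nucleotide kinase gene beside it, 1.29-fold. These 2 lie 14085 bases apart on chromosome 6, on opposite strands.

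IFIT proteins bind viral RNA that lacks the marks of the cell's own messenger RNA. Ifit3 stood at 34.6, 56.6, 28.5, 75.8 and 28.5 CPM in MOD 1 to 5 and 72.7, 77.2, 79.2, 44.8 and 84.3 CPM in XBS 1 to 5. MOD 4 reached the XBS level and XBS 4 lay within the MOD range, so the groups overlapped; the difference was 1.60-fold (log2 fold change 0.68 ± 0.29, SE; edgeR adjusted p = 0.360). Ifit2 ran from 61.7 to 120.0 CPM across MOD and 64.6 to 131 CPM across XBS, a 1.23-fold difference (edgeR adjusted p = 0.546).

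Ifit1 did not follow its neighbours. It stood at 2.87, 2.09, 73.8, 50.3 and 21.3 CPM in MOD 1 to 5 and 65.1, 58.3, 56.4, 4.55 and 74.2 CPM in XBS 1 to 5. MOD 1, MOD 2 and XBS 4 held 40, 29 and 72 reads, and the other 7 libraries 301 to 1035 reads. In those 3 libraries Ifit3 and Ifit2 were within the range of the other libraries, with 483, 785 and 708 reads of Ifit3, though XBS 4 was the lowest XBS library for both. The ratio of Ifit1 to Ifit3 was 0.0828, 0.0369 and 0.102 in MOD 1, MOD 2 and XBS 4, 2.59 in MOD 3 and 0.664 to 0.896 in the other 6. Within MOD the highest library stood 35.3-fold above the lowest; of the 10474 genes with a mean of at least 10 CPM, 7 had a wider range than Ifit1 in MOD, 35 in XBS (where Ifit1 spanned 16.3-fold), and 5 in both. The low libraries occur in both groups, and the difference between the groups was 1.72-fold (log2 fold change 0.78 ± 0.90, SE; edgeR adjusted p = 0.724). With single libraries left out this log2 fold change ran from 0.48 (without MOD 2) to 1.42 (without MOD 3), and it passed in none of these 10 fits.

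The genes around it did not share these low values. Ifit1 (ENSRNOG00000019050) occupies bases 252944103 to 252946170 of chromosome 1 by the deposited coordinates, 32720 bases from Ifit3. Between them lies the related gene Ifit1bl, a gene outside the list that was looked up after the Ifit1 values were seen, with 24.7, 42.3, 22.8, 44.0 and 26.3 CPM in MOD 1 to 5 and 41.3, 61.3, 46.6, 40.9 and 39.4 CPM in XBS 1 to 5. Slc16a12, on the other side, had 63.4, 57.8 and 46.0 CPM in the same 3 libraries and 32.0 to 58.1 CPM in the other 7. How the authors' counting treats reads shared between IFIT paralogues is stated in no source used here, and the cause of the low Ifit1 counts was not tested.

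**Figure D3:**
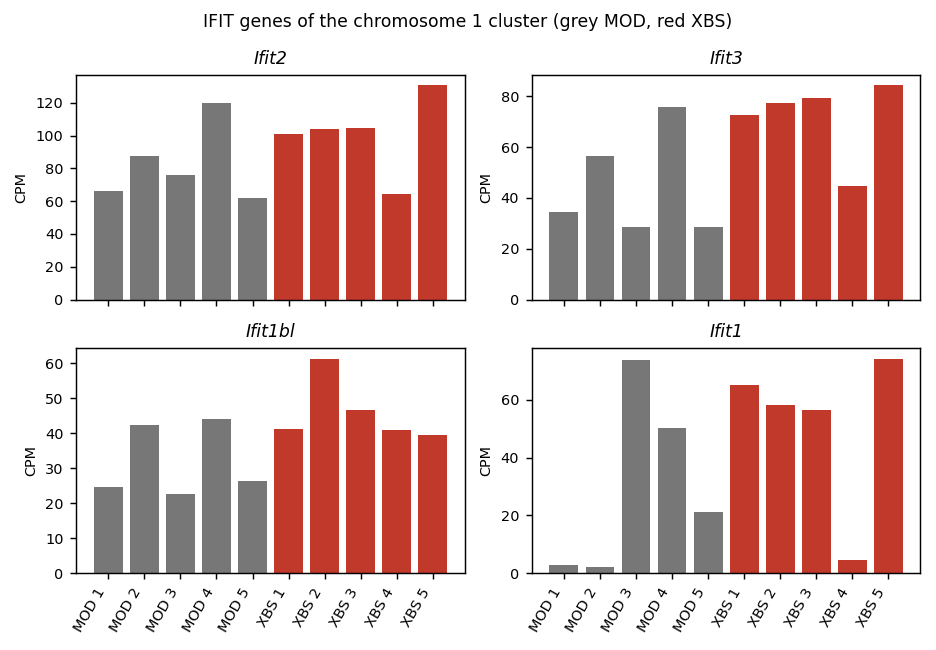
CPM of 4 IFIT genes that neighbour each other on chromosome 1, 1 panel per gene with 1 bar per library (grey MOD, red XBS). Ifit1 is at 2.87, 2.09 and 4.55 CPM in MOD 1, MOD 2 and XBS 4, where Ifit2, Ifit3 and Ifit1bl stay within the range of the other 7 libraries.

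All 4 members of the oligoadenylate synthetase family, which make the second messenger that activates RNase L or, as OAS-like proteins, aid RNA sensing, had positive fold changes (0 rose, 0 fell, 4 did not pass). Oasl stood at 11.0, 12.3, 13.7, 21.5 and 10.7 CPM in MOD 1 to 5 and 26.5, 25.9, 24.9, 14.7 and 26.0 CPM in XBS 1 to 5. XBS 1, 2, 3 and 5 lay within 1.6 CPM of each other, XBS 4 stood 10.2 CPM below them, and MOD 4 stood above the other MOD libraries. The difference was 1.70-fold, with a log2 fold change of 0.77 ± 0.22 (SE, edgeR adjusted p = 0.205) and a DESeq2 adjusted p of 0.0428.

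Oasl2, 12703 bases away on the same strand of chromosome 12, stood at 90.4, 79.2, 79.7, 99.4 and 53.0 CPM in MOD 1 to 5 and 159, 159, 111, 67.1 and 125 CPM in XBS 1 to 5, 1.54-fold higher (edgeR adjusted p = 0.305). XBS 4 was below 4 of the 5 MOD libraries. Oas1a (11.5 to 30.1 CPM across MOD and 12.9 to 32.5 CPM across XBS) was 1.41-fold higher and Oas2 (8.71 to 22.5 CPM across MOD and 10.1 to 33.9 CPM across XBS) 1.48-fold; both groups overlapped. Of the other OAS genes in the table, Oas1f was 1.48-fold and Oas3 1.5-fold higher (edgeR adjusted p = 0.247 and 0.407). OAS paralogues are similar in sequence, so reads could have been split between them.

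The ISG15 system attaches a ubiquitin-like protein to other proteins, and of its 5 members 0 rose, 0 fell and 5 did not pass. Isg15, the modifier itself, stood at 19.7, 34.5, 29.6, 48.1 and 19.5 CPM in MOD 1 to 5 and 44.5, 53.4, 45.1, 22.1 and 46.5 CPM in XBS 1 to 5. MOD 4 lay within the range of the upper 4 XBS libraries, and XBS 4 stood below MOD 2, MOD 3 and MOD 4. The means were 30.3 ± 11.9 CPM over the MOD libraries against 42.3 ± 11.8 CPM over the XBS libraries (SD, n = 5 each), a 1.40-fold difference (edgeR adjusted p = 0.473). Uba7, the activating enzyme, was 1.33-fold higher, and Usp18, which removes ISG15 and restrains the receptor, 1.42-fold.

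Herc6, the rodent ligase for ISG15, had the highest CPM of this group and stood at 124, 104, 90.1, 141 and 73.4 CPM in MOD 1 to 5 and 263, 245, 139, 76.2 and 165 CPM in XBS 1 to 5. XBS 1 and XBS 2 were highest and XBS 4 sat between MOD 5 and MOD 3, a 1.66-fold difference (edgeR adjusted p = 0.353). Trim25, a ubiquitin ligase that acts on RIG-I, was 1.10-fold lower in XBS (edgeR adjusted p = 0.691), and its lowest library was XBS 2.

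Parp9 and Dtx3l form a complex that joins ADP-ribosylation to ubiquitin, and they lie head to head on chromosome 11, 1128 bases apart. With Parp14 they make 3 members, of which 0 rose, 0 fell and 3 did not pass. Parp9 was at 78.1 to 94.2 CPM across MOD and 74.5 to 138 CPM across XBS, 1.26-fold higher, with XBS 4 the lowest of all 10 libraries. Dtx3l was 1.14-fold higher. Parp14, an ADP-ribosyltransferase, stood at 74.0, 122, 98.7, 131 and 80.9 CPM in MOD 1 to 5 and 91.0, 99.1, 112, 95.5 and 135 CPM in XBS 1 to 5, a 1.05-fold difference (edgeR adjusted p = 0.873) smaller than the SD within either group.

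The membrane restriction factors did not share the direction: 1 of 4 members was positive (0 rose, 0 fell, 4 did not pass), and the median log2 fold change was -0.17. Bst2 (tetherin, which holds budding virus at the cell surface) stood at 181, 322, 219.7, 357 and 218 CPM in MOD 1 to 5 and 181, 300.4, 273, 168 and 192 CPM in XBS 1 to 5. MOD 2, MOD 4 and XBS 2 were highest, and the 1.16-fold lower mean in XBS was within the spread (edgeR adjusted p = 0.679). Ifitm1, Ifitm2 and Ifitm3 encode proteins that block the fusion of viral with cell membranes. Ifitm2 was 1.11-fold lower and Ifitm3 1.02-fold higher.

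Ifitm1 was the member in which XBS 4 stood highest of all 10 libraries. It stood at 66.2, 49.5, 81.1, 77.1 and 86.5 CPM in MOD 1 to 5 and 49.9, 42.9, 44.9, 94.8 and 86.1 CPM in XBS 1 to 5. XBS 1, XBS 2 and XBS 3 lay at 42.9 to 49.9 CPM and XBS 4 and XBS 5 at 86.1 to 94.8 CPM, so the XBS libraries fell on either side of most MOD libraries (edgeR adjusted p = 0.782). XBS 2 and XBS 3 also had the lowest levels of airway cell markers: the ciliated marker list summed to 385 and 386 CPM there, against 668 to 1141 CPM in the other 8 libraries, and none of its markers in the table was at 0 throughout. Without XBS 2 and XBS 3 the log2 fold change of Ifitm1 turned from -0.18 to 0.095. The part of airway cells in this result was not tested.

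Guanylate-binding proteins, which coat the vacuoles of pathogens and are strongly driven by interferon gamma, were 2 of the members, and neither passed. Gbp2 stood at 79.3, 137, 109, 122 and 85.8 CPM in MOD 1 to 5 and 101, 131, 127, 89.6 and 124 CPM in XBS 1 to 5, a 1.07-fold difference (edgeR adjusted p = 0.807). MOD 2 held the highest value and MOD 1 the lowest. Gbp5, which promotes inflammasome assembly, was 1.17-fold higher (edgeR adjusted p = 0.638).

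Of the 8 remaining members all had positive fold changes, 0 rose, 0 fell and 8 did not pass. Ifi44l and Ifi44, neighbours on chromosome 2, are widely used as interferon signature genes. Ifi44l stood at 20.4, 24.3, 25.4, 24.9 and 16.8 CPM in MOD 1 to 5 and 38.4, 36.9, 32.7, 20.7 and 32.3 CPM in XBS 1 to 5. Ifi44 stood at 53.8, 62.2, 55.7, 55.0 and 38.5 CPM in MOD 1 to 5 and 102, 103, 74.4, 47.2 and 71.8 CPM in XBS 1 to 5. In both, XBS 1 and XBS 2 were highest, XBS 4 lay inside the MOD range and MOD 5 was the lowest library. The differences were 1.44-fold and 1.5-fold (edgeR adjusted p = 0.245 and 0.277), and 1.57-fold and 1.66-fold without XBS 4 (adjusted p = 0.0965 and 0.106).

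Ifi27, a mitochondrial protein gene used in blood interferon scores, stood at 249.7, 418, 345, 391.6 and 269.6 CPM in MOD 1 to 5 and 375, 334, 465, 302 and 489.5 CPM in XBS 1 to 5. XBS 5 and XBS 3 were highest and MOD 1 and MOD 5 lowest, a 1.17-fold difference (edgeR adjusted p = 0.572). Rtp4 was 1.29-fold higher, the apoptosis gene Xaf1 1.19-fold, the nuclear body genes Sp110 and Pml 1.15-fold and 1.05-fold, and Lgals3bp, a secreted glycoprotein gene, 1.12-fold. Lgals3bp was set by 1 library, XBS 5 at 373 CPM, without which its log2 fold change turned from 0.17 to -0.041.

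Per kilobase of gene, the levels ranged widely. In the deposited FPKM values, which divide the count by gene length and library size, the MOD means ran from 1.77 ± 0.480 FPKM for Zbp1 to 415 ± 90.3 FPKM for Ifi27 (SD, n = 5). Ifi27, Ifitm3, Bst2, Ifitm2 and Ifitm1 had MOD means above 100 FPKM, and each differed by at most 1.17-fold between the groups. Zbp1, Oasl, Oas2, Rsad2, Uba7, Oas1a, Dtx3l and Dhx58 had MOD means under 10 FPKM, and their fold changes were 1.14-fold to 2.19-fold higher in XBS.

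**Figure D4:**
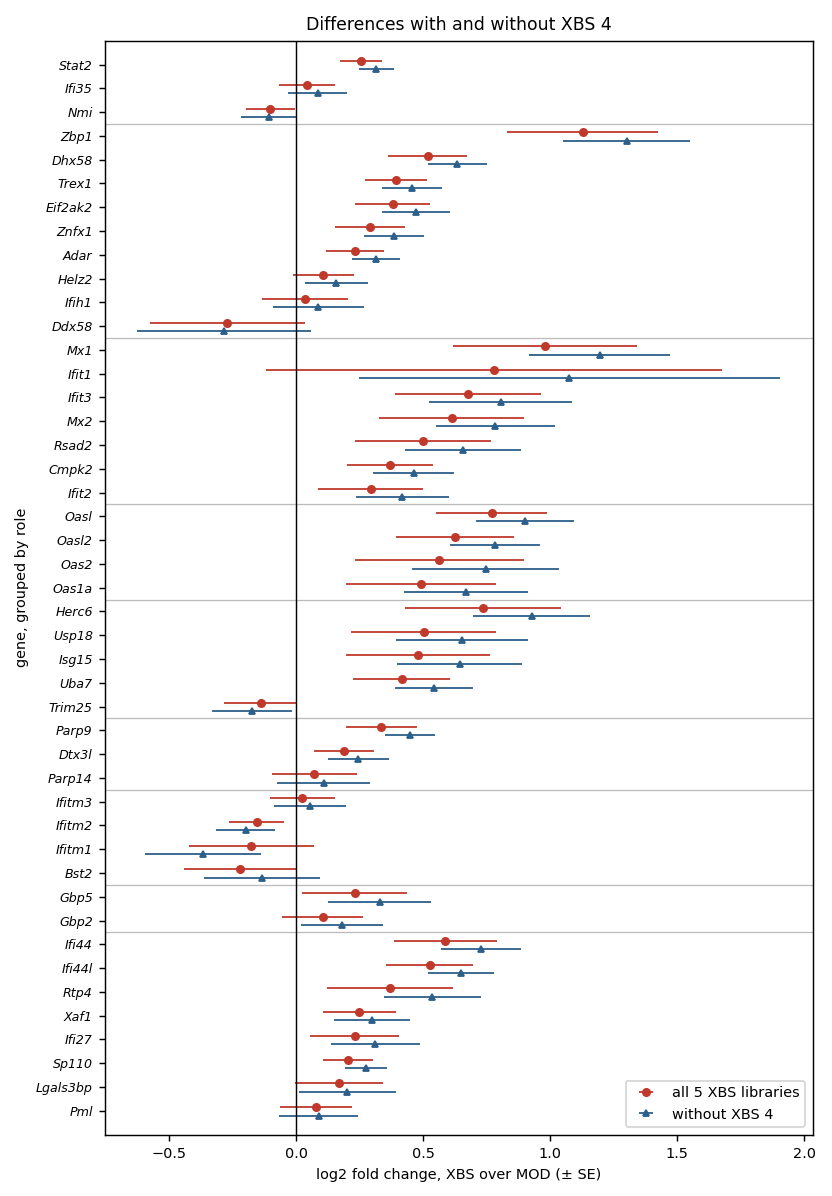
Log2 fold change of each member, XBS over MOD, with its standard error, from edgeR with all 5 XBS libraries (red circles) and without XBS 4 (blue triangles); genes are grouped by role. Leaving out XBS 4 moved 44 of 45 fold changes farther from 0, Bst2 being the exception, and the membrane restriction factors sit near or below 0 in both.

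The interferon genes examined were themselves at the limit of detection. A chosen list of 12 interferon ligand genes was looked up, and all 12 were in the table, which may hold others. Of these 12, 7, including Ifnb1, had 0 reads in every library. That allows up to 3 reads per library, or 0.19 to 0.247 CPM, for counting error only. The other 5, Ifng, Ifnk, Ifna1, Ifna4 and Ifna16l1, reached at most 7 reads, and none was tested. The highest was Ifng, interferon gamma, with 7 reads in XBS 1 and 5 in XBS 2 and at most 2 in the other 8 libraries. Interferon genes have short pulses of expression and near-identical copies, so their reads could also be split.

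The receptors and kinases that carry the signal had small fold changes. Of 9 tested, 7 had positive fold changes, 0 rose, 0 fell and 9 did not pass, where 51.9% of all genes were positive; 3 were higher and 0 lower at an unadjusted p under 0.05 (7.4% and 5.78% of all genes), with a median log2 fold change of 0.16. The type I receptor chains were level, Ifnar1 at 253 ± 16.0 CPM over the MOD libraries against 258 ± 25.5 CPM over the XBS libraries (SD, n = 5 each) and Ifnar2 at 55.3 ± 2.64 CPM over the MOD libraries against 55.2 ± 5.18 CPM over the XBS libraries (SD, n = 5 each). Ifngr2, a chain of the interferon gamma receptor, was 1.17-fold higher, with every XBS library above every MOD library (58.8 to 72.0 CPM in MOD and 73.5 to 85.0 CPM in XBS; edgeR adjusted p = 0.256). Tyk2 was 1.21-fold higher, Jak2 1.12-fold, Ifnlr1 1.16-fold, Il10rb 1.15-fold and Ifngr1 1.05-fold, and Jak1 1.04-fold lower. Of 10 tested sensor adaptors and kinases 8 were positive and 0 passed, with 6 higher and 0 lower at an unadjusted p under 0.05 (again against 7.4% and 5.78% of all genes); the smallest p values were those of Sting1 (1.37-fold higher), Myd88 (1.18-fold) and Tlr7 (1.30-fold).

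All 8 interferon regulatory factors examined had positive fold changes; 1 rose, 0 fell and 7 did not pass, where 51.9% of all genes were positive and 0.0279% rose. The one that rose was Irf5, which drives inflammatory cytokine genes in macrophages. It stood at 26.7, 30.3, 30.0, 31.1 and 36.0 CPM in MOD 1 to 5 and 50.6, 53.2, 53.4, 44.3 and 46.6 CPM in XBS 1 to 5, with every XBS library above every MOD library. It was 1.61-fold higher (edgeR adjusted p = 0.0302), and it was not called when any 1 of MOD 2 to 4 or XBS 1 to 3 was left out (adjusted p up to 0.123). Irf7, which amplifies interferon production and is itself an interferon-stimulated gene, had the largest fold change of these factors. It stood at 52.7, 70.1, 105, 126 and 62.7 CPM in MOD 1 to 5 and 209, 195, 185, 66.7 and 226 CPM in XBS 1 to 5, 2.11-fold higher (edgeR adjusted p = 0.228). XBS 4 again lay within the MOD range and below MOD 2, MOD 3 and MOD 4. By DESeq2 Irf5 and Irf7 were called higher. Irf9, the partner of STAT2, was 1.21-fold higher and also had XBS 1, 2, 3 and 5 above every MOD library. Irf8 and Irf4 were 1.47-fold and 1.53-fold higher, Irf3, Irf2 and Irf1 1.23-fold, 1.05-fold and 1.06-fold; none of these passed. Irf8 turned on 1 library: MOD 5 held 168 CPM and MOD 1 to 4 71.3 to 84.8 CPM, and without MOD 5 it was called higher (edgeR adjusted p = 0.0106).

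Genes that restrain the signal did not share the direction. Of 8 tested, 4 had positive and 4 negative fold changes, with a median log2 fold change of 0.00 to 2 decimals; 0 rose, 0 fell and 8 did not pass, with 0 higher and 1 lower at an unadjusted p under 0.05 (7.4% and 5.78% of all genes). Socs3, a feedback inhibitor induced mainly by STAT3, was 1.40-fold lower in XBS (edgeR adjusted p = 0.228), Ptpn11, a phosphatase gene, 1.12-fold lower and Ptpn6, its relative of blood cells, 1.09-fold higher.

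**Figure D5:**
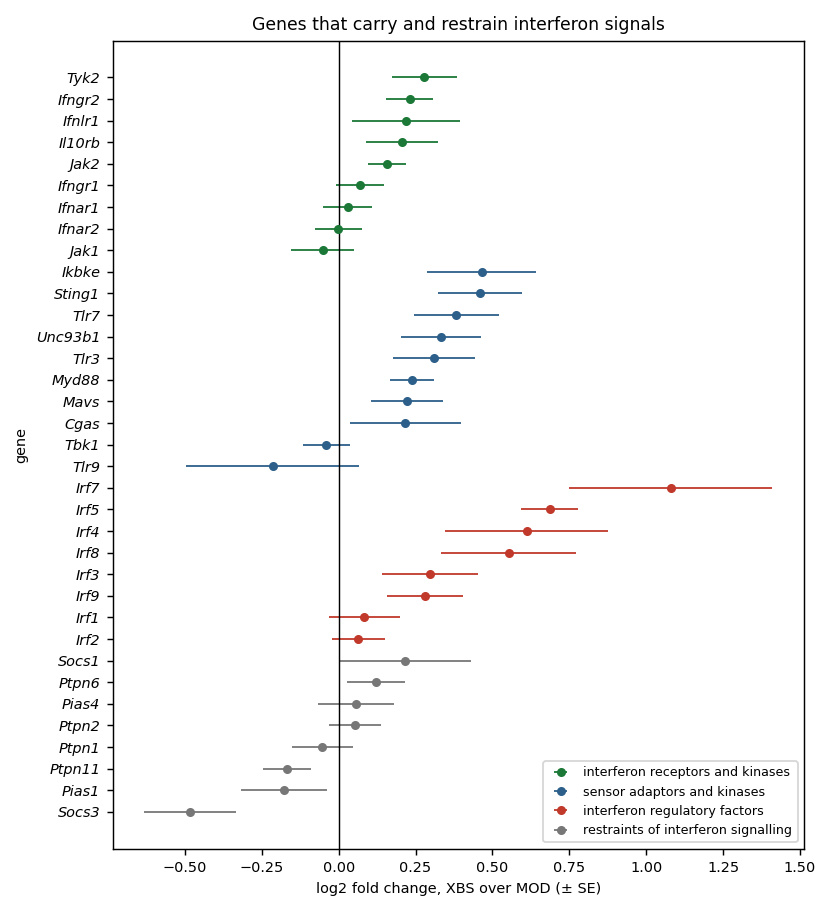
Log2 fold change, XBS over MOD, with standard error (edgeR) for 35 tested genes that carry or restrain interferon signals, coloured by list. Irf7 and Irf5 lie farthest to the right, the receptor chains Ifnar1 and Ifnar2 lie at 0.03 and -0.00, and Socs3 lies farthest to the left.

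Of a further 37 tested interferon-stimulated genes outside the list, 34 had positive fold changes, 0 rose, 0 fell and 37 did not pass (over all genes 51.9% were positive). At an unadjusted p under 0.05 by edgeR, 16 were higher (7.4% of all genes) and 0 lower (5.78%). DESeq2 called 2 higher, Sp100 and Slfn13 (1.5% of the genes to which it gave an adjusted p). The median log2 fold change was 0.31, and 0.39 without XBS 4. XBS 4 was the lowest XBS library for 29 of the 37 (19.1% of all genes), and 15 had XBS 1, 2, 3 and 5 above every MOD library (2.97% of all genes). Sp100, a nuclear body protein gene related to Sp110, was 1.47-fold higher and did not overlap between the groups, with XBS 4 included: it stood at 26.2, 22.5, 22.1, 24.99 and 22.3 CPM in MOD 1 to 5 and 34.2, 37.3, 33.4, 29.2 and 39.9 CPM in XBS 1 to 5 (edgeR adjusted p = 0.0854). Slfn4, a Schlafen gene of myeloid cells, was 3.07-fold higher (edgeR adjusted p = 0.206), its highest library being XBS 2 at 1163 CPM and MOD spanning 81.0 to 249.5 CPM, and Slfn2 1.28-fold higher (edgeR adjusted p = 0.217).

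Markers of other cell types also varied between the libraries. Over 14 marker lists 0 markers rose and 1 fell, Cyp4b1 of the club cell list, an enzyme gene of airway cells (395 ± 11.2 CPM over the MOD libraries against 249 ± 25.7 CPM over the XBS libraries (SD, n = 5 each); edgeR adjusted p = 0.0104). Over all genes 51.9% had positive fold changes, 0.0279% rose and 0.0489% fell. Neutrophil markers had 17 of 17 tested markers positive, summed level 822 to 1140.3 CPM in MOD and 1002 to 1671 CPM in XBS. Monocyte and interstitial macrophage markers had 12 of 13 tested markers positive, summed level 18800.1 to 26832 CPM in MOD and 13468 to 34167 CPM in XBS. Plasmacytoid dendritic cell markers, of the cells known for the most interferon per cell, had 7 of 10 tested markers positive, summed level 157 to 167 CPM in MOD and 159.6 to 199 CPM in XBS, and T cell markers 12 of 13 tested markers positive, summed level 168 to 229 CPM in MOD and 235 to 294 CPM in XBS. NK and cytotoxic cell markers had 9 of 10 tested markers positive, summed level 206 to 292 CPM in MOD and 187 to 374 CPM in XBS. Of the epithelial lists, alveolar type 1 cells had 0 of 12 tested markers positive, summed level 9094 to 10448 CPM in MOD and 6046 to 9541 CPM in XBS. None of the markers in these 6 lists that the table holds was at 0 in every library. In the remaining lists, 1 of 13 ciliated, 2 of 8 club and 2 of 10 alveolar type 2 markers tested were positive. So were 2 of 10 endothelial and 0 of 6 red cell markers. Alveolar macrophage, dendritic cell and B cell lists had 5 of 5, 5 of 8 and 10 of 11 positive. The endothelial marker Cldn5 was at 0 in every library. In XBS 4 the summed neutrophil and T cell markers stood at 1435 and 235 CPM, both above the MOD range. That place held for the sums only. By the mean of the log2 levels, each centred on the gene's mean, XBS 4 lay inside the MOD range for both. Neutrophil markers stood at 0.23 in XBS 4, against -0.39 to 0.34 in MOD. T cell markers stood at -0.03 in XBS 4, against -0.50 to 0.19 in MOD. The summed plasmacytoid markers, at 159.6 CPM, lay within the MOD range. The T cell, plasmacytoid and alveolar macrophage sums of XBS 4 were the lowest of the XBS libraries. The alveolar macrophage sum was 89.6 CPM there (75.5 to 117 CPM in MOD). The NK and cytotoxic sum of XBS 4, at 204 CPM, lay below the MOD range. Its mean log2 level, at -0.34, lay inside that range (-0.37 to 0.11). For plasmacytoid and alveolar macrophage markers the lowest place held for the sum only. The alveolar macrophage mean log2 level was -0.14 in XBS 4 and -0.18 in XBS 2. The mean of the plasmacytoid log2 levels, each centred on the gene's mean, was 0.07 in XBS 4. It was -0.22, -0.03, -0.07 and 0.64 in XBS 1, 2, 3 and 5. The part of cell content in the interferon-stimulated genes was not tested.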

How the data were processed

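Lung RNA of 10 libraries (MOD 1 to 5, XBS 1 to 5) was isolated with Trizol, messenger RNA purified and libraries made with ligated adapters and PCR, per the labels' protocols. Human (hg38, GRCh38) and mouse (mm10) builds are listed, per the submitters' processing notes, and no rat build; the aligner, counter and strandedness are named in no source used here. Without strand, reads of overlapping antisense genes cannot be told apart.

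The authors deposited raw read counts per gene, per the file headers, and FPKM values, which matched the count divided by length and total (relative deviation at most 8.82e-08) and served here only to compare levels between genes. filterByExpr (minimum count 10, minimum total 15) left 14320 genes holding 99.921% of the counts. After TMM scaling, edgeR 4.0.16 (quasi-likelihood glmQLFit and glmQLFTest, robust; R 4.3.3) gave the tests, with Benjamini-Hochberg adjustment over all genes tested and a threshold of 0.05; every p without another name is from this test. Standard errors are the log2 fold change over the square root of F. Folds are 2 to the power of the fitted log2 fold change. The script was checked on simulated counts with known changes. No 2 libraries of a group were alike within counting noise (chi-square over degrees of freedom at least 9.46). RefSeq promoter windows (GRCr8) were matched by gene identifier or symbol.

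The members, lists, marker lists and the setting apart of XBS 4 were chosen with earlier results of these data known. Values in every library are given for the 8 members of smallest p, the member of highest mean CPM in each role group, and Stat2, Isg15, Mx1 and Ifit3. Ifit1, Ddx58, Ifitm1, neighbours of Ifit1 and the values of Trim25 and Nmi beside Ddx58 were added after their values were seen. Every member is named, and of pathway lists all genes of the receptor and kinase list and of the regulatory factor list, and otherwise the 3 genes of smallest p with a few others; the rest of each list is given by counts, and 2 genes were taken out of the lists and are not reported here. Alternatives were DESeq2 1.42.0, limma 3.58.1 voom with sample weights, RLE and upper quartile scaling, other filters, a replicate block and leaving out libraries. Precision rests on the scatter between libraries of a group, which exceeded counting noise, besides the totals of 11998979 to 15518929 counts.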

Additional observations from a re-analysis of the deposited data

Results flagged for a closer look

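The groups examined were 90 sets of 5 libraries, 45 members in each of MOD and XBS. In 7 of them a library's gap to the nearest other was over 0.71 of the group's range. Chance would give about 4.5 if the groups were separate draws. They were not, as XBS 4 was the lowest XBS library for 35 of the 45 members. The 7 and the 4.5 therefore cannot be weighed against each other. Of these 7, 4 concern XBS 4, 2 concern XBS 5 and 1 concerns MOD 4. Oasl stood at 14.7 CPM in XBS 4, against 24.9 to 26.5 CPM in the other XBS libraries. Isg15 stood at 22.1 CPM in XBS 4, against 44.5 to 53.4 CPM. Oas1a stood at 12.9 CPM in XBS 4, against 28.7 to 32.5 CPM. Ifit1 stood at 4.55 CPM in XBS 4, against 56.4 to 74.2 CPM; its low values in MOD 1 and MOD 2 were 2 of 5 and so could not stand out by this measure. Oasl stood at 21.5 CPM in MOD 4, against 10.7 to 13.7 CPM in the other MOD libraries. In XBS 5, Lgals3bp stood at 373 CPM, against 196 to 224 CPM, and Ifitm3 at 315 CPM, against 210.1 to 233 CPM.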

How the results depend on the processing

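No single alternative of scaling, filter or left-out library called a member by edgeR; DESeq2 called 2, and limma voom 0. The count of genes called over all genes went from 11 to 348 by DESeq2, 67 by limma voom, 3 without XBS 2 and XBS 3, and 4 to 15 with single libraries left out. Leaving out libraries singly gave 34 to 39 positive members and a median log2 fold change over members of 0.236 to 0.418. The replicate number did not pair the libraries (correlations of same-numbered libraries from -0.125 to 0.329, with 1 of 5 MOD libraries closest to its own number); with the number as a replicate block 1 gene, 0 members and 0 pathway genes were called, and 39 members stayed positive. Of the pathway genes 1 was called, 4 by DESeq2, 2 by limma voom, 0 without XBS 2 and XBS 3 and 0 to 3 with single libraries left out, an alternative added after seeing the data. Signs turned, and the cause was not tested: by limma voom Gbp2 (-0.010), Parp14 (-0.003), Ifi35 (-0.039), Ifih1 (-0.058) and Ifitm3 (-0.043), and without XBS 2 and XBS 3 Ifitm1 (0.095), Gbp2 (-0.025) and Ifi35 (-0.104). With single libraries left out the log2 fold changes ran from -0.018 to 0.087 for Ifi35, -0.057 to 0.156 for Ifih1, -0.093 to 0.075 for Ifitm3, -0.041 to 0.236 for Lgals3bp, -0.028 to 0.181 for Parp14 and -0.022 to 0.144 for Pml, and Ifit1, with no turn of sign, from 0.478 to 1.425. Members with every XBS library above every MOD library numbered 0 (1.61% of all genes), and 15 without XBS 4 (2.97%). XBS 4 was set apart with earlier results of these data known. The core letters lay before the start in 19 windows and in all bases in 21. Depth was lowest for Ifit1 and Zbp1, with 29 and 44 reads in their lowest libraries.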

Other observations

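Genes of antigen presentation that interferon gamma drives had a median fold change near 0. Of 13 tested, 7 had positive fold changes, 0 rose, 0 fell and 13 did not pass, with 1 higher and 0 lower at an unadjusted p under 0.05 by edgeR (7.4% and 5.78% of all genes), and the median log2 fold change was 0.09 against 0.01 over all genes. XBS 4 was the lowest XBS library for 5 of the 13, and 0 had XBS 1, 2, 3 and 5 above every MOD library (19.1% and 2.97% of all genes). The 3 genes of smallest p were Ciita (0.43 ± 0.19 on the log2 scale, SE; adjusted p = 0.366 by edgeR), Tapbp (-0.26 ± 0.16; adjusted p = 0.486) and Nlrc5 (0.21 ± 0.13; adjusted p = 0.498). Ciita turned on 1 library: MOD 5 held 90.0 CPM and MOD 1 to 4 45.9 to 50.6 CPM, and without MOD 5 it was called higher (edgeR adjusted p = 0.0428).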
